A study of Mus musculus with 24 samples.

Results

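The nuclear-encoded subunits of the respiratory chain were followed in mouse retroperitoneal white adipose tissue. Their genes were chosen by symbol alone: names that start with Ndufa, Ndufb, Ndufc, Ndufs, Ndufv, Uqcr, Atp5 or Cox4 to Cox8 were taken, as were Cyc1 and Sdha to Sdhd, and assembly factors named Ndufaf, names with -ps, Cox8b and Cox7a1 were left out. This gave 88 genes of 56895 gene entries. Complex I accounted for 39 of them, complex II for 4, complex III for 9, complex IV for 19 (Ndufa4 and Ndufa4l2 included) and ATP synthase for 16, and Atp5s was kept apart. RNA-seq of polyadenylated RNA was done on 24 C57BL/6J offspring (bred from mice that the study's methods name C57BL/6JRJ), 3 in each of 8 groups. Their mothers ate AIN-93G with 1.0 IU/g vitamin D3 (CTRL) or without it (0.0 IU/g, VDD for vitamin D deficiency) for at least 8 weeks before mating and through gestation, and all mothers ate the CTRL diet from birth to weaning. At 6 weeks of age, male and female offspring were put on a low fat (LF, AIN-93M) or a high fat diet (HF, with 45% of energy from fat) for 8 weeks and were fasted overnight before sampling. No label ties a mouse to a litter or a library to a batch, so the p-values measure only the spread between these mice.

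The respiratory chain sits in the inner mitochondrial membrane. Complex I oxidises NADH and complex II succinate, complex III passes the electrons from ubiquinol to cytochrome c, complex IV hands them to oxygen, and ATP synthase is driven by the proton gradient that results. White adipocytes hold few mitochondria compared with brown adipocytes and muscle fibres. A small set of subunits is encoded in mitochondrial DNA, and the remainder comes from nuclear genes, many of which are known targets of the transcription factors NRF1 and GABPA and of the coactivator PGC-1alpha.

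Promoter sequence from RefSeq (GRCm38.p6) was matched by symbol to 65 of the 88 genes and searched on both strands over the 250 bases before the start. The core of the NRF1 motif, GCGCANGCG, was in 13 of the 65 (20%) and in 5.33% of 27025 promoters, 1 for each symbol. The GABPA motif CCGGAAG was in 11 (16.9%) and in 7.05% of all promoters, and 4 members held both. The YY1 motif AAGATGGC was in 0 members and 1.59% of all promoters, and TCAAGGTCA, the motif of the oestrogen-related receptors, in 1 member and 0.366%. A match describes letters only and is not a binding site. Stretches that overlap no annotated exon are printed for 5 genes, to show a motif in complexes I, II and IV and in ATP synthase beside the promoter of Cox5a, which has none of the 4 motifs. They are Ndufb4 of complex I (chr16:37654454-37654618, minus strand, NRF1), Sdhd of complex II (chr9:50603850-50603909, minus strand, GABPA), Cox6a1 of complex IV (chr5:115348982-115349129, minus strand, NRF1), Atp5g3 of ATP synthase (chr2:73911327-73911576, minus strand, oestrogen-related receptors) and Cox5a of complex IV (chr9:57520982-57521231, plus strand). Each reads 5′ to 3′ along the gene, with the motifs in capitals.
Ndufb4: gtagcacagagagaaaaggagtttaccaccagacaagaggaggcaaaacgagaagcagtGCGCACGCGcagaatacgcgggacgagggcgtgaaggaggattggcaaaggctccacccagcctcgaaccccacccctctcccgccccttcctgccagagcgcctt
Sdhd: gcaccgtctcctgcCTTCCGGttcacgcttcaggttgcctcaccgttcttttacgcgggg
Cox6a1: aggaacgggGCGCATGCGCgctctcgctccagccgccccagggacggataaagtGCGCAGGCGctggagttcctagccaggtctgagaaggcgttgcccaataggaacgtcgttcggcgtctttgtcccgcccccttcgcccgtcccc
Atp5g3: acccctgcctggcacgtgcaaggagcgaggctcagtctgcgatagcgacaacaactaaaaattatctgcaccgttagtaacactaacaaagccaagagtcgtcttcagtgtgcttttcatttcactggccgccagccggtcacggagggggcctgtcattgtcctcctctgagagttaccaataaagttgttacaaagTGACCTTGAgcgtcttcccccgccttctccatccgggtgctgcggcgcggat
Cox5a: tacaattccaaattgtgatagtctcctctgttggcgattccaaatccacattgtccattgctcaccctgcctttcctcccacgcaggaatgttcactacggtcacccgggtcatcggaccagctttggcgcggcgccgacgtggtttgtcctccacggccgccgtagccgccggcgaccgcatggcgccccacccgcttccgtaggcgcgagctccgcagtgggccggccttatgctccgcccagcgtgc

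Libraries held 13346779 to 18484346 reads on genes. Levels below are normalized reads, scaled over all 24 libraries. The 10 white adipocyte markers, Adipoq and Plin1 among them, summed to 331701 to 913107 normalized reads, so the labelled tissue was present in every library. Other tissue was present too. The 15 skeletal muscle markers summed to 946.9 to 1418751, and their mean log2 level was above 9 in 9 libraries (6 VDD and 3 CTRL), the highest being VDD LF male 2310. The 11 brown adipocyte markers summed to 878.3 to 41060, with the highest values in VDD HF females 2083 and 2121. Kidney markers summed to 7773 in VDD LF female 2303 and to at most 575.8 in the others, and 6 libraries have the word renal in their names. The comparisons of maternal diet, offspring diet and sex over all 24 libraries are also given without these libraries.

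Reads on the 88 genes made up 1.22% ± 0.17 (SD, n = 3) of all reads on genes in CTRL LF males, 1.08% ± 0.168 in CTRL HF males, 1.64% ± 0.212 in VDD LF males and 1.28% ± 0.128 in VDD HF males. In females the share was 1.47% ± 0.123 in CTRL LF, 1.18% ± 0.0907 in CTRL HF, 1.89% ± 0.323 in VDD LF and 2.06% ± 0.375 in VDD HF mice. The VDD mean was the higher one in each of the 4 pairs of maternal groups. VDD HF females, with 1.65%, 2.13% and 2.39%, did not overlap with CTRL HF females, with 1.1%, 1.17% and 1.28%. VDD LF males, with 1.41%, 1.67% and 1.83%, lay just above CTRL LF males, with 1.06%, 1.21% and 1.4%. In HF males and in LF females the maternal groups overlapped. In bulk tissue, fewer cells of a type and less RNA per cell cannot be told apart.

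**Figure D1:**
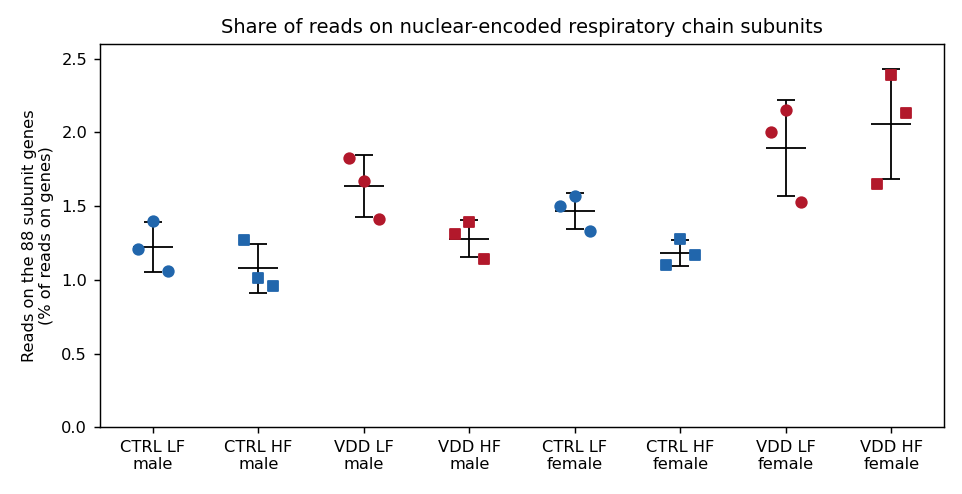
Share of the reads on genes that fell on the 88 subunit genes (y axis, %) in the 8 groups (x axis). Points are mice (blue CTRL, red VDD, circles LF, squares HF), and the line and whiskers are the mean and SD of 3 mice. The VDD HF females lie at 1.65% and above, and the CTRL HF females at 1.28% and below.

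Maternal VDD was compared with CTRL over all 24 libraries, averaged over sex and offspring diet. Of the 83 members with at least 10 normalized reads in 3 libraries or more, 64 rose and 0 fell (limma, adjusted p under 0.05), where 2.53% of all 18399 tested genes rose and 2.05% fell. The median log2 difference was 0.59 over the members and -0.01 over all tested genes. A stricter rule took the thresholds of the study's methods, an adjusted p under 0.01 and a fold above 1.5 or below 0.66, but with limma where the study used DESeq2. By this rule 4 members were called (0.103% of all genes), Cox5a, Ndufb5 and Ndufv2 among them. This stricter count ranged from 0 (for example without CTRL LF male 2296) to 57 (without VDD LF female 2312) when 1 library was left out, and was 27 with the white adipocyte marker level as a covariate. Here and below, ranges over fits that left out 1 library carry no counts of all genes. In them, a shift in the members alone cannot be told from a shift in all genes.

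The number of members called changed when libraries were left out. Without the 9 muscle-rich libraries 0 members were called (17 of all genes, 15 libraries left) with a median of 0.52. Without the 6 libraries named renal, whose mean log2 level of kidney markers was 1.02 to 2.16, 0 were called (1 of all genes, 18 left) with a median of 0.59. Leaving out as many other libraries was not tried, so the tissue in these libraries and the smaller number of mice cannot be told apart. Without the 2 VDD HF females rich in brown adipocyte markers 15 rose (118 of 18185 genes), with a median of 0.52. Without VDD LF female 2303 51 rose (216 of 18290 genes). Of 10 brown adipocyte markers tested, 10 were higher in VDD mice and 3 rose (Cox7a1, Cox8b and Cpt1b), with a median of 1.58. Cox7a1 and Cox8b are themselves subunits of complex IV and forms of muscle as well as brown fat. Ucp1 (0.83 to 5278 in CTRL and 0.94 to 25479 in VDD mice) and Cidea (18.2 to 2698 and 66.4 to 10362) did not pass. The sum of the brown markers was 936 to 2036 in CTRL HF males and 878 to 1392 in CTRL HF females, against 1730 to 4012 in VDD HF males and 3853 to 41060 in VDD HF females. In LF mice it was 2233 to 4053 in CTRL males, 4518 to 9167 in VDD males, 2141 to 12224 in CTRL females and 2539 to 12257 in VDD females, and no marker of this list was at 0 throughout. All 15 muscle markers were higher in VDD mice (median 2.65) and 0 passed. Of 8 macrophage markers 7 were lower and 1 higher in VDD mice (median -0.47), and 0 passed. Of 10 white adipocyte markers 7 were higher and 3 lower (median 0.07), and 0 passed. With the mean brown marker level as a covariate 0 members and 0 of all genes were called, with a members' median of 0.52. With Cox8b and Cox7a1 taken out of that covariate 6 members rose, where 57 of 18399 genes rose, with a median of 0.56. With the muscle marker level as the covariate 46 members rose, where 162 of 18399 genes rose. The part of brown adipocytes, muscle and the other cells in the difference was not tested.

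**Figure D2:**
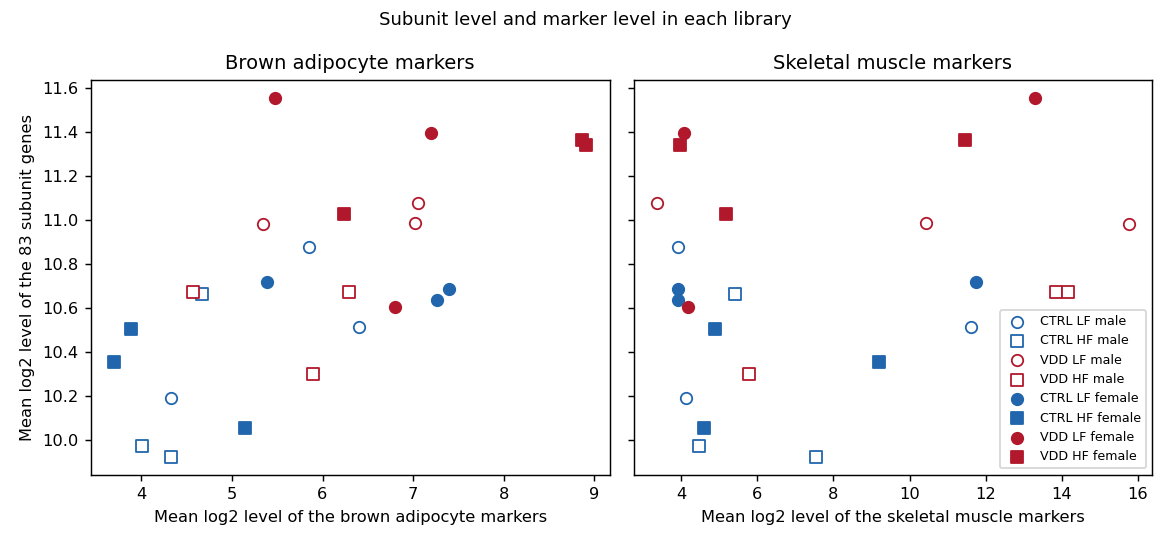
Mean log2 level of the 83 members tested (y axis) against the mean log2 level of the brown adipocyte markers (left, x axis) and of the skeletal muscle markers (right, x axis), 1 symbol per library (blue CTRL, red VDD, circles LF, squares HF, open males, filled females). Red symbols lie higher than blue ones of the same shape and filling in most libraries. VDD LF female 2312 (10.603) lies below every CTRL LF female, and VDD HF male 2308 (10.3) below CTRL HF male 2127 (10.663). At the right end of the brown marker axis stand 2 VDD HF females.

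Complex I takes up electrons from NADH. Of its 36 members tested 30 rose with maternal VDD, and all 36 differences were positive (0.39 to 0.73). Ndufv2 (chr17:66078638-66101559, mm10), an iron-sulphur subunit of the NADH-oxidising arm, had a lowest, median and highest level of 1139, 1878 and 2849 normalized reads in the 12 CTRL and of 1701, 3261 and 4604 in the 12 VDD mice, and a log2 difference of 0.72 ± 0.12, adjusted p = 0.00765 (SE and limma here and below). Ndufb5, an accessory subunit of the membrane arm, had 943, 1467 and 2080 in CTRL and 1288, 2415 and 3275 in VDD mice (0.68 ± 0.11, adjusted p = 0.00714). In both genes the ranges overlapped and the VDD median exceeded every CTRL mouse. The core subunits Ndufs1 (0.60 ± 0.15, adjusted p = 0.0331), Ndufv1 (0.63 ± 0.13, adjusted p = 0.017) and Ndufs8 (0.58 ± 0.12, adjusted p = 0.0171) rose too, as did Ndufb8 (0.66 ± 0.14, adjusted p = 0.0179), an accessory subunit often used as a marker of assembled complex I.

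Complex II feeds electrons from succinate into the chain and is also an enzyme of the citric acid cycle. All 4 of its subunits rose. The flavoprotein Sdha (chr13:74322254-74350280) had a lowest, median and highest level of 5633, 7588 and 13185 in CTRL and of 7271, 11875 and 20409 in VDD mice (0.54 ± 0.12, adjusted p = 0.0196), with wide overlap. The iron-sulphur subunit Sdhb (0.62 ± 0.12, adjusted p = 0.0143) and the membrane anchors Sdhc (0.43 ± 0.12, adjusted p = 0.0429) and Sdhd (0.57 ± 0.13, adjusted p = 0.0216) rose as well.

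All 9 members of complex III rose, by 0.59 to 0.86 on the log2 scale. The small subunit Uqcrq had the largest difference (0.86 ± 0.17, adjusted p = 0.0129), with a lowest, median and highest level of 1106, 2064 and 2932 in CTRL and 1538, 3899 and 6342 in VDD mice. Cyc1, which is cytochrome c1, differed by 0.71 ± 0.15, adjusted p = 0.017, the Rieske iron-sulphur protein Uqcrfs1 by 0.64 ± 0.14, adjusted p = 0.0171, and the core protein Uqcrc1 by 0.59 ± 0.13, adjusted p = 0.0214.

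Complex IV was uneven, with 9 of 17 members rising and differences from -0.24 to 2.68. Cox5a (chr9:57521274-57532426), a subunit of the matrix side, had a lowest, median and highest level of 1174, 1847 and 3007 in CTRL and 1830, 4022 and 5943 in VDD mice. Its VDD median was above the highest CTRL mouse, and its log2 difference (0.95 ± 0.14, adjusted p = 0.00466) was the largest of the members that passed. Cox7b (0.77 ± 0.15, adjusted p = 0.0133), Cox6c (0.72 ± 0.14, adjusted p = 0.0132) and Cox5b (0.66 ± 0.13, adjusted p = 0.0129) followed, and Cox4i1, the ubiquitous form of subunit 4, rose by 0.57 (adjusted p = 0.017). Cox8a (0.41 ± 0.17, adjusted p = 0.144) and Cox7a2l (0.31 ± 0.09, adjusted p = 0.051) did not pass. The 3 members with a negative difference were the paralogues Ndufa4l2 (-0.24 ± 0.20, adjusted p = 0.47), Cox4i2 (-0.12 ± 0.18, adjusted p = 0.718) and Cox6b2 (-0.01 ± 0.16, adjusted p = 0.989), and none of them passed.

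In ATP synthase 12 of 16 members rose, with differences of 0.40 to 0.66. Atp5a1 (0.50 ± 0.13, adjusted p = 0.0339), the catalytic subunit Atp5b (0.47 ± 0.13, adjusted p = 0.0445), the rotor shaft Atp5c1 (0.52 ± 0.11, adjusted p = 0.0148) and Atp5o of the stalk (0.59 ± 0.12, adjusted p = 0.016) were among them. Atp5l of the membrane sector had a lowest, median and highest level of 374, 583 and 938 in CTRL and of 472, 971 and 1492 in VDD mice (0.65 ± 0.12, adjusted p = 0.0103). Atp5g1, Atp5g2 and Atp5g3, which encode the same mature c-ring protein and whose reads are hard to keep apart from those of copies elsewhere, differed by 0.55 ± 0.21, adjusted p = 0.121, by 0.40 ± 0.12, adjusted p = 0.0565, and by 0.46 ± 0.15, adjusted p = 0.0729, and did not pass.

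**Figure D3:**
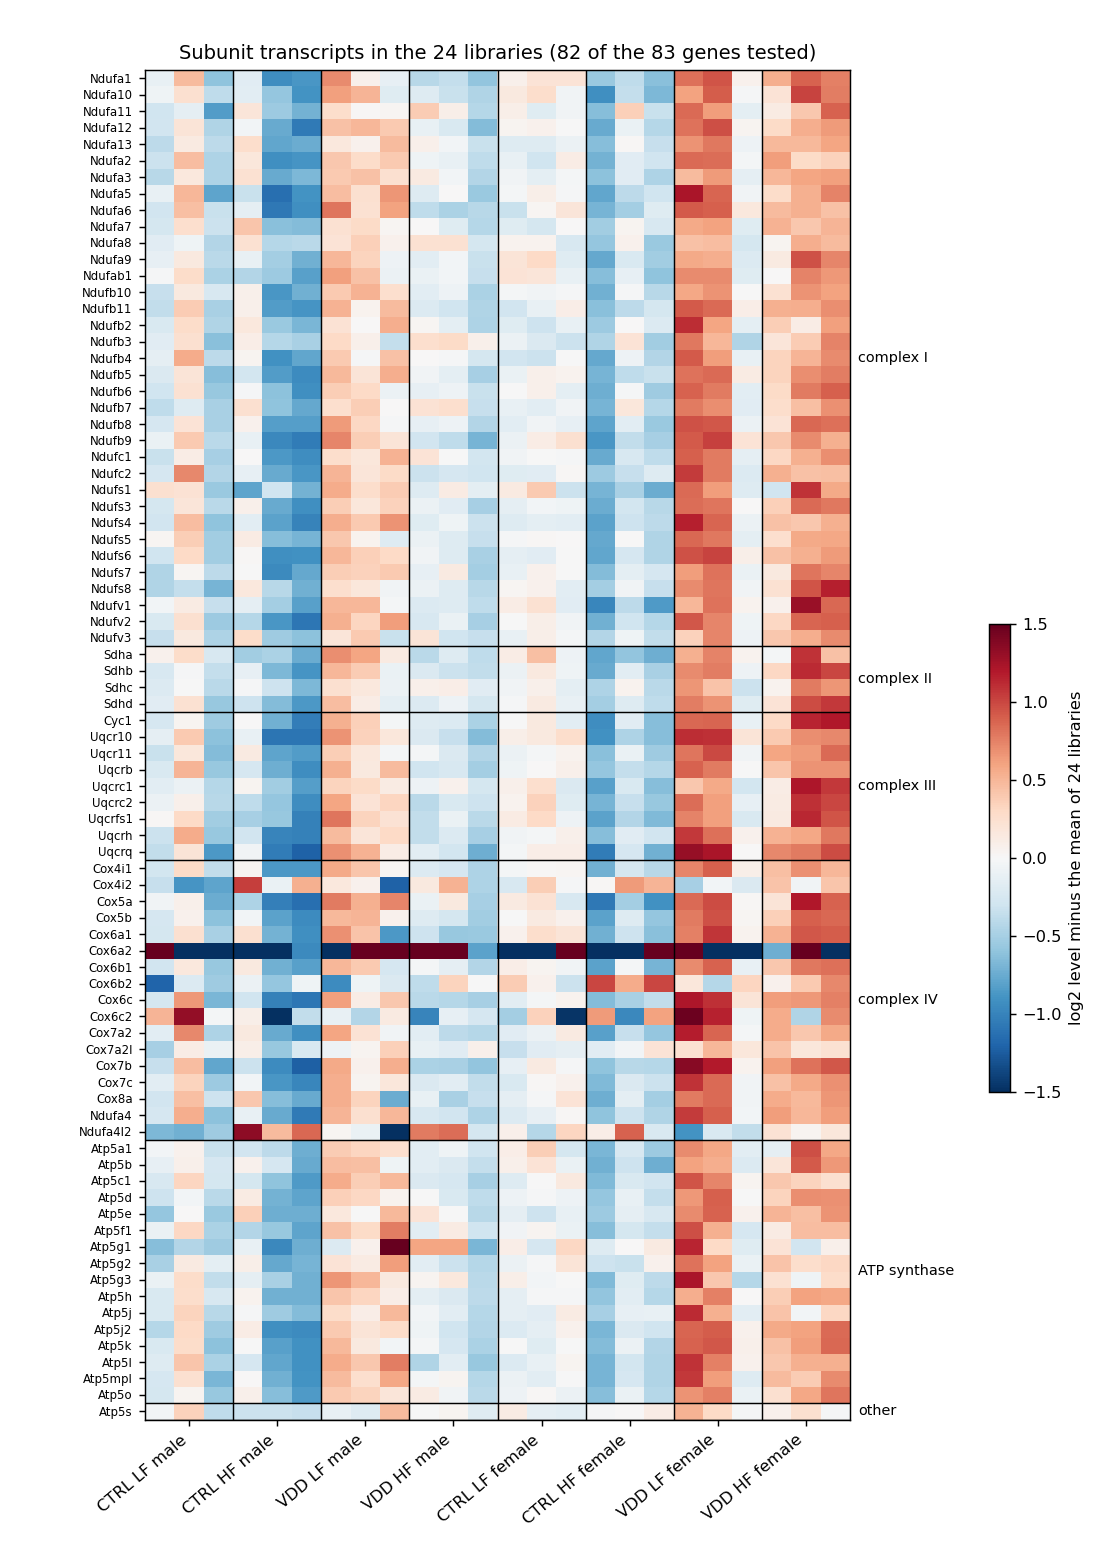
Level of 82 of the 83 members tested (y axis, by complex) in the 24 libraries (x axis, 3 per group), drawn as log2 normalized reads minus the gene's mean over 24 libraries (colour bar, limited to 1.5 on either side). Blue prevails in CTRL HF males and females and red in VDD LF mice and VDD HF females, and Cox4i2, Cox6a2, Cox6b2, Cox6c2 and Ndufa4l2 differ from the members around them.

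The comparisons of 3 against 3 mice were fitted to each deposited table on its own, so their log2 differences rest on that table's scaling. At the thresholds of the stricter rule the study, with DESeq2, lists many more genes in each pair than limma called here. In CTRL LF vs. VDD LF males 82 of 82 members were higher in VDD mice (median 0.48) and 0 passed the stricter or the 0.05 rule (0.0% and 0.0% of all genes). At an unadjusted p under 0.05 there were 28 (1048 of 15438 genes), and limma-voom called 0. In 24 members every VDD mouse was above every CTRL mouse (6.83% of all genes). Ndufv2 was among them, with 1656, 2063 and 2849 normalized reads in CTRL LF and 3022, 3500 and 3723 in VDD LF males (0.68 ± 0.23, adjusted p = 0.683). The median was 0.32 without CTRL LF male 2296 to 0.67 without CTRL LF male 2293.

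In CTRL HF vs. VDD HF males 78 of 81 were higher in VDD mice, with a median of 0.28, which was 0.13 without CTRL HF male 2131 to 0.54 without CTRL HF male 2127. By either rule 0 passed (0.0% and 0.0% of all genes), and limma-voom called 0. At an unadjusted p under 0.05 there were 7 (850 of 16013 genes), and 7 did not overlap (5.04% of all genes). Atp5g1 had the largest positive difference (0.75 ± 0.38, adjusted p = 0.941), with 342, 401 and 618 in CTRL HF and 413, 1002 and 1004 in VDD HF males, and Ndufa4l2 the most negative (-0.46 ± 0.36, adjusted p = 0.997). Both genes overlapped between the groups. Cox5a had 1174, 1268 and 1875 in CTRL HF and 1830, 2403 and 2848 in VDD HF males (0.70 ± 0.24, adjusted p = 0.94), and CTRL HF male 2127 was the highest of its group.

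In CTRL LF vs. VDD LF females 79 of 82 were higher in VDD mice (median 0.52). At an unadjusted p under 0.05 there were 29 (1933 of 16046 genes). By either rule 0 passed (0.0% and 0.0% of all genes), and limma-voom called 0. The groups did not overlap in 14 (8.48% of all genes). VDD LF female 2312 had lower levels than both other mice of its group in most members, as in Cox5a with 2191, 2827 and 3007 in CTRL LF and 2609, 4654 and 5075 in VDD LF females (0.58 ± 0.27, adjusted p = 0.431), and without it the median was 0.83.

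In CTRL HF vs. VDD HF females 79 of 82 were higher in VDD mice, and the median of 1.01 was the largest of the 4 maternal comparisons. In 71 members every VDD HF female was above every CTRL HF female (11.1% of all genes). At an unadjusted p under 0.05 there were 74 members (2752 of 16480 genes), but 0 passed either rule (0.0% and 0.0% of all genes) and limma-voom called 0. The same contrast taken from the fit over 24 libraries called 34 members at an adjusted p under 0.05, all higher in VDD mice. In that fit 176 of 18399 genes rose and 97 fell. Cox5a had the largest difference (1.6 on the log2 scale, adjusted p = 0.131), with 1225, 1378 and 1819 in CTRL HF and 2956, 4781 and 5943 in VDD HF females. Sdha had 5633, 5816 and 6403 against 9459, 13121 and 20409 in the same order (1.21 ± 0.30, adjusted p = 0.162), and Uqcrc1 had 1652, 1873 and 2474 against 3138, 6058 and 6767 (1.37 ± 0.32, adjusted p = 0.158). The groups did not overlap in any of the 3 genes. The lowest VDD HF female in these 3 genes was 2081. Its mean log2 level of brown markers was 6.237, against 8.859 in 2083 and 8.91 in 2121. Its macrophage markers were at 10.049, against 8.059 and 8.33, and its T lymphocyte markers at 7.774, against 5.169 and 4.545. The part of these cells was not tested.

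The HF diet was compared with the LF diet over the same 24 libraries. Of the 83 members 35 fell and 3 rose at an adjusted p under 0.05, where 14.2% of all genes fell and 15.0% rose. The members' median log2 difference was -0.31 and that of all genes 0.01. The stricter rule called 2 members (9.44% of all genes), Uqcr10 lower and Ndufa4l2 higher. This number was 1 (for example without CTRL LF male 2293) to 10 (without VDD LF female 2312) when 1 library was left out, and 7 without the brown-rich libraries. Without the 9 muscle-rich libraries 7 of 82 members fell and 1 rose, with a median of -0.39. In that setting 1601 of 17509 genes fell and 2333 rose, so the members' share of falls was near that of all genes. Without the kidney-rich library 23 members fell and 3 rose (2375 and 2580 of 18290 genes). Without the libraries named renal 29 fell and 1 rose (1641 and 1737 of 18058 genes). Without the brown-rich libraries 34 fell and 2 rose (2285 and 2660 of 18185 genes). Of the brown adipocyte markers 9 of 10 were lower in HF mice and 3 fell (median -0.68), and 7 of 8 macrophage markers rose. Of 10 white adipocyte markers 8 were lower in HF mice, 3 fell and 1 rose (median -0.24). With the brown marker level as a covariate 21 members fell, with a median of -0.28, where 2120 of 18399 genes fell. The part of these cells was not tested.

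By complex, 17 of 36 members of complex I fell, 1 of 4 of complex II, 6 of 9 of complex III, 7 of 17 of complex IV and 4 of 16 of ATP synthase. Ndufb9, an accessory subunit of complex I, had a lowest, median and highest level of 2059, 3177 and 5536 normalized reads in LF and 1314, 2101 and 4456 in HF mice (-0.60 ± 0.13, adjusted p = 0.00188), and Ndufa6, another accessory subunit, differed by -0.56 ± 0.13, adjusted p = 0.00285. In complex II, Sdha fell (-0.56 ± 0.12, adjusted p = 0.00212) with 8196, 11150 and 16241 in LF and 5633, 7125 and 20409 in HF mice, while Sdhb (-0.26 ± 0.12, adjusted p = 0.126), Sdhc (-0.06 ± 0.12, adjusted p = 0.77) and Sdhd (-0.20 ± 0.13, adjusted p = 0.263) did not pass. Uqcr10, a small subunit of complex III, had the largest fall (-0.62 ± 0.14, adjusted p = 0.00279), with 1786, 3211 and 5903 in LF and 1279, 2070 and 4536 in HF mice.

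In complex IV, Cox5a (-0.55 ± 0.14, adjusted p = 0.00787), Cox6c (-0.53 ± 0.14, adjusted p = 0.00828), Cox7b (-0.52 ± 0.15, adjusted p = 0.0145) and Cox4i1 (-0.40 ± 0.12, adjusted p = 0.0196) fell with the HF diet, and Cox7a2l differed by -0.02 ± 0.09, adjusted p = 0.91. In ATP synthase, Atp5l (-0.51 ± 0.12, adjusted p = 0.00329) and the rotor shaft Atp5c1 (-0.48 ± 0.11, adjusted p = 0.00234) had the smallest p, and Atp5a1 (-0.33 ± 0.13, adjusted p = 0.056) and the catalytic subunit Atp5b (-0.28 ± 0.13, adjusted p = 0.114) did not pass. The falls of Ndufb9, Sdha, Uqcr10, Cox5a, Cox7b, Atp5l and Atp5c1 passed in each of the 24 fits that left out 1 library.

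**Figure D4:**
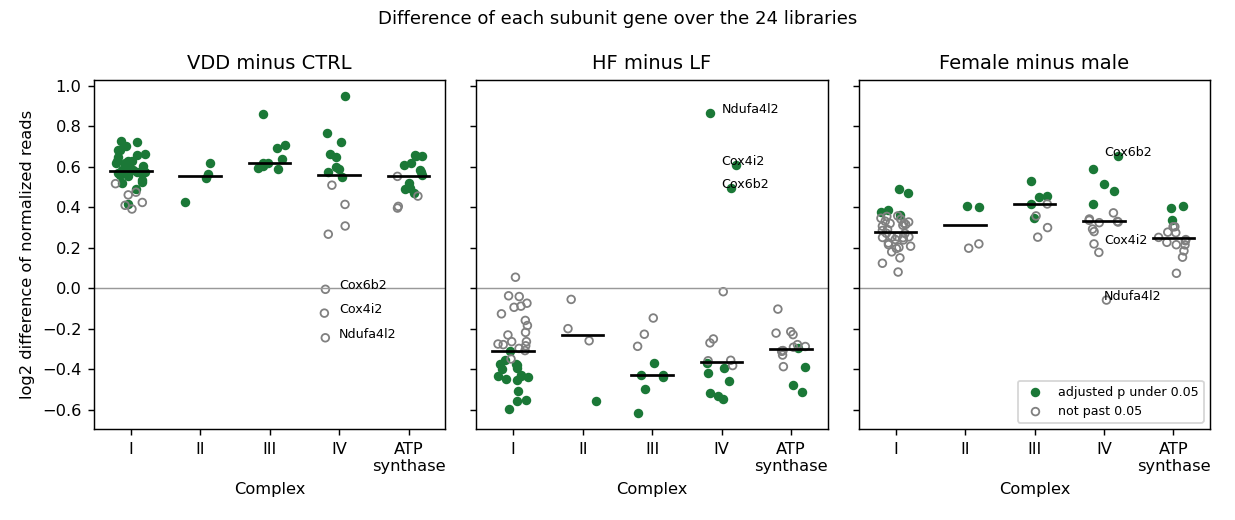
Log2 difference of each member (y axis) by complex (x axis) for VDD minus CTRL (left), HF minus LF (middle) and female minus male (right), from limma over 24 libraries. Filled points have an adjusted p under 0.05 and lines are the medians of the points drawn. Cox6a2 (2.68 on the left) and Atp5s are not drawn. Ndufa4l2, Cox4i2 and Cox6b2 are the points below 0 on the left and the filled points above 0 in the middle.

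In CTRL LF vs. CTRL HF males 75 of 81 members were lower on the HF diet (median -0.38). By the 0.05 rule 0 fell and 1 rose (0.468% and 0.699% of all genes), and the stricter rule called 0 members (0.0578% of all genes). At an unadjusted p under 0.05 there were 13 of 81 members and 2924 of 15583 genes, so the members' share was below that of all genes. Limma-voom called 1 at 0.05, as higher (95 of 15583 genes). In 2 members all HF mice were below all LF mice (11.7% of all genes). Cox6c had the most negative difference (-0.71 ± 0.34, adjusted p = 0.301), with 3223, 4335 and 8160 in LF and 2451, 2580 and 4228 in HF males, which overlapped. CTRL HF male 2127 was the highest of its group in most members, and the median was -0.64 without CTRL HF male 2127 and -0.19 without CTRL LF male 2293.

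For VDD males on LF and HF 77 of 82 were lower on the HF diet (median -0.53) and 52 did not overlap (16.5% of all genes). At an unadjusted p under 0.05 there were 50 members (4138 of 15965 genes), and limma-voom called 6 at 0.05, all lower (315 of 15965 genes). By the 0.05 rule 11 fell and 0 rose (2.35% and 3.0% of all genes), and the stricter rule called 0 (0.0752%). Among those that fell were Ndufs4, Ndufv2, Ndufa6 and Ndufc2 of complex I, Uqcrb of complex III, Cox6c, Cox7b and Ndufa4 of complex IV, and Atp5c1 and Atp5l of ATP synthase. Atp5l had 926, 1031 and 1192 in VDD LF and 472, 512 and 629 in VDD HF males (-0.97 ± 0.16, adjusted p = 0.0302), without overlap. The number that passed was 41 without VDD LF male 2310, the library richest in muscle markers, and 0 without VDD LF male 2078.

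In CTRL LF vs. CTRL HF females 76 of 82 were lower on the HF diet (median -0.41) and 51 did not overlap (18.2% of all genes). At an unadjusted p under 0.05 there were 53 members (4762 of 16563 genes), and limma-voom called 8 at 0.05, all lower (622 of 16563 genes). By the 0.05 rule 12 fell and 0 rose (4.16% and 3.24% of all genes), and the stricter rule called 0 (0.0%). Among those that fell were Ndufv1, Ndufa1, Ndufa10 and Ndufb9 of complex I, Sdha, Uqcr10, Uqcrb and Uqcrfs1, and Cox5a, Cox6a1 and Cox7b of complex IV. Sdha had 9131, 10414 and 13185 in CTRL LF and 5633, 5816 and 6403 in CTRL HF females (-0.88 ± 0.18, adjusted p = 0.0351), without overlap. The number ranged from 0 without CTRL LF female 2125 to 28 without CTRL HF female 2291, and was 1 in the fit over 24 libraries, where 160 of 18399 genes fell.

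In VDD LF vs. VDD HF females 50 of 82 members were higher and 32 lower on the HF diet, with a median of 0.04. By either rule 0 passed (0.0% and 0.0% of all genes), and limma-voom called 0. Only 1 member, Ndufa4l2, had an unadjusted p under 0.05 (804 of 15923 genes). Sdha had 10000, 13930 and 16241 in VDD LF and 9459, 13121 and 20409 in VDD HF females (0.06 ± 0.35, adjusted p = 0.984), and the groups overlapped. The median ranged from -0.24 without VDD LF female 2312 to 0.21 without VDD LF female 2303, so its sign depended on 1 library.

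Whether the response to the HF diet differed by maternal diet was tested as an interaction. In females the median interaction over the members was 0.43 on the log2 scale and 76 of 83 were positive. The median was 0.17 without VDD LF female 2312 to 0.58 without VDD LF female 2303, 0.18 without the libraries named renal (60 of 83 positive) and 0.24 without the brown-rich libraries. 13 members had an unadjusted p under 0.05 (1171 of 18399 genes), and 0 passed by limma (0.0% of all genes) or limma-voom. Uqcrc1 (1.16 ± 0.38, adjusted p = 0.654) and Uqcrfs1 (1.11 ± 0.39, adjusted p = 0.655) were among those with an unadjusted p under 0.05. In males the median was -0.18, and it was -0.37 without CTRL LF male 2293 to 0.06 without CTRL HF male 2127. There 0 members had an unadjusted p under 0.05 (755 of 18399 genes) and 0 passed (0.0% of all genes). For the interaction of sex with offspring diet the median was 0.26. It was 0.13 without VDD LF female 2312 to 0.40 without CTRL HF male 2127, 0.09 without the libraries named renal (56 higher and 27 lower) and 0.52 without the muscle-rich libraries. For this interaction 3 of 83 members and 1642 of 18399 genes had an unadjusted p under 0.05, so the members' share was below that of all genes. By limma (0.0435% of all genes) or limma-voom 0 members passed. No interaction passed for any member.

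The members that rose with the HF diet were Ndufa4l2, Cox4i2 and Cox6b2. Ndufa4l2 (chr10:127514967-127517154), a paralogue of Ndufa4 known to be induced by low oxygen, had a lowest, median and highest level of 30.4, 75.1 and 124 normalized reads in LF and 82.2, 127 and 253 in HF mice (0.87 ± 0.20, adjusted p = 0.00291). CTRL LF males had 59.9, 61.9 and 68.2 and CTRL HF males 138, 180.5 and 253, without overlap, and this was the member that rose in that pair (1.52 ± 0.26, adjusted p = 0.032). VDD LF males had 30.4, 92.1 and 101 and VDD HF males 82.2, 170.2 and 178, which overlapped (1.03 ± 0.55, adjusted p = 0.294). In females the differences were 0.24 ± 0.33, adjusted p = 0.66 with CTRL and 0.64 ± 0.26, adjusted p = 0.837 with VDD mothers. Cox4i2, the form of subunit 4 known from lung, had 18.7, 38 and 57.7 in LF and 32, 60 and 93 in HF mice (0.61 ± 0.18, adjusted p = 0.0157). Cox6b2, the form of subunit 6b known from testis, had 20.3, 41 and 62.5 in LF and 31.7, 55.2 and 96.9 in HF mice (0.49 ± 0.16, adjusted p = 0.0235). The rise of each passed in all 24 fits that left out 1 library. Without the muscle-rich libraries Ndufa4l2 passed (0.59) and Cox4i2 (0.38) and Cox6b2 (0.52) did not, and without the libraries named renal the values were 0.90, 0.61 and 0.48 with the first alone passing.

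Per kilobase of exon these paralogues were far below their partners. Ndufa4l2 was at 2.14% of Ndufa4 in the median library, at 0.947% to 2.42% in CTRL LF males and 5.37% to 8.7% in CTRL HF males. CTRL HF males were the highest group, and VDD HF females, at 1.66% to 1.74%, lay within the range of the LF groups. Cox4i2 was at 0.503% to 1.09% of Cox4i1 in CTRL LF and 1.96% to 3.07% in CTRL HF males, and at 0.99% to 1.47% and 1.92% to 2.2% in CTRL females. In VDD mice it was at 0.475% to 0.899% in LF and 1.14% to 1.98% in HF males, and at 0.485% to 0.928% and 0.694% to 1.14% in females, so that the diets overlapped in VDD females and in no other pair. Cox6b2 was at 0.713% to 1.05% of Cox6b1 in CTRL LF and 1.31% to 3.04% in CTRL HF females, which did not overlap. The diets overlapped in CTRL males (0.447% to 0.877% and 0.733% to 1.44%), VDD males (0.311% to 0.881% and 0.67% to 1.2%) and VDD females (0.345% to 1.17% and 0.654% to 0.81%). Of the partners, Ndufa4 (-0.42 ± 0.14, adjusted p = 0.0278) and Cox4i1 fell, and Cox6b1 had a negative difference that did not pass (-0.25 ± 0.15, adjusted p = 0.209).

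**Figure D5:**
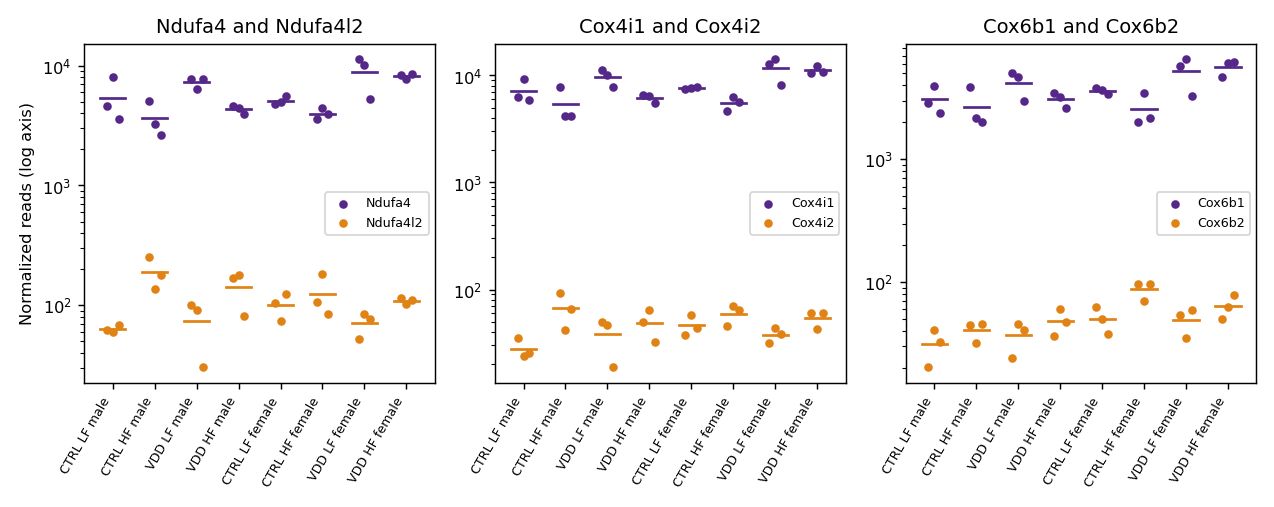
Normalized reads (y axis, log scale) of Ndufa4, Cox4i1 and Cox6b1 (purple) and of their paralogues Ndufa4l2, Cox4i2 and Cox6b2 (orange) in the 8 groups (x axis). Points are mice and lines are means of 3. Orange lines are higher in each HF group than in the LF group of the same sex and maternal diet, and purple lines are higher in each VDD group than in the CTRL group of the same sex and offspring diet.

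Cox6a2 (chr7:128205435-128206387), the form of subunit 6a made in heart and skeletal muscle, had 10 or more normalized reads in 9 libraries, the same 9 in which muscle markers were high. VDD LF males had 0, 71.3 and 2934 and VDD HF males 6.06, 693 and 805, and CTRL HF males 0, 2.24 and 5.36. In VDD LF male 2310 it was at 119% of Cox6a1 per kilobase, and in the median library at 0.0761%. Its differences with maternal VDD (2.68 ± 1.48, adjusted p = 0.28) and the HF diet (0.19 ± 1.48, adjusted p = 0.941) did not pass. Cox7a1 and Cox8b, the forms of muscle and brown fat that were left out of the 88 genes, rose with maternal VDD (2.36 ± 0.34, adjusted p = 0.00466, and 1.99 ± 0.31, adjusted p = 0.00466). Too low to test were Cox7b2 with 0 reads over all libraries, Cox8c with 2, Ndufa11b with 6, Ndufs6b with 63 and Ndufb4c with 98. The last 3 and Cox6c2 are annotated as processed pseudogenes, so their reads cannot be told apart with certainty from those of the parent genes.

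Between the sexes 20 of 83 members were higher in females and 0 lower at an adjusted p under 0.05, where 10.8% of all genes were higher and 9.04% lower. The median (female minus male) was 0.30 on the log2 scale. The stricter rule called 1 member (7.27% of all genes). The number was 0 to 3 when 1 library was left out. The member called was Cox6b2, with a lowest, median and highest level of 20.3, 41 and 60.2 in males and 35.2, 61.2 and 96.9 in females (0.66 ± 0.16, adjusted p = 0.00631). By complex, 5 of 36 members of complex I passed, 2 of 4 of complex II, 5 of 9 of complex III, 5 of 17 of complex IV and 3 of 16 of ATP synthase. Of the X-linked members, Cox7b (0.59 ± 0.15, adjusted p = 0.0102) and Ndufa1 (0.49 ± 0.13, adjusted p = 0.0133) passed and Ndufb11 (0.34 ± 0.13, adjusted p = 0.0683) did not. Ndufs8, an iron-sulphur core subunit, differed by 0.47 ± 0.12, adjusted p = 0.0112. The count was not stable: it ranged from 6 (for example without CTRL HF male 2131) to 48 (without VDD LF female 2312) when 1 library was left out. It was 1 of 82 without the muscle-rich libraries, where 1014 of 17509 genes were higher in females. Without the brown-rich libraries it was 2 of 83, where 1342 of 18185 genes were higher. In both settings the members' share was below that of all genes. Markers of other cells differed too. In females 7 of 8 macrophage markers (median -0.90) and 2 of 4 endothelial markers (median -0.39) were lower, and 3 of 4 mammary epithelium (median 2.58) and 2 of 2 adrenal markers tested (median 3.27) were higher, at an adjusted p under 0.05. All 15 muscle markers were lower (median -1.57) and 0 passed, and 1 of 10 brown adipocyte markers passed as higher (median 0.72). Their part in the difference was not tested.

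The 13 subunits encoded in mitochondrial DNA took 3.3% to 11.8% of the reads on genes. The counts below stand beside 2.53% of all genes that rose with maternal VDD and 14.2% that fell with the HF diet. With the HF diet 12 fell (median -0.68), mt-Atp8 (-1.22 ± 0.24, adjusted p = 0.00117) and mt-Nd3 (-1.09 ± 0.19, adjusted p = 0.000358) the most. With maternal VDD all 13 were higher (median 0.58) and 2 rose, mt-Atp6 (0.70 ± 0.19, adjusted p = 0.0452) and mt-Co3 (0.64 ± 0.17, adjusted p = 0.0418). Of 41 assembly factors of the chain, 5 rose with maternal VDD (median 0.27) and 5 fell with the HF diet (median -0.13), the latter a share near that of all genes. Of 14 citric acid cycle enzymes 11 rose with maternal VDD (median 0.56), the citrate synthase gene Cs by 0.52 ± 0.14, adjusted p = 0.0446, and with the HF diet 3 fell and 1, Idh2, rose. Of 12 electron carriers and exchangers 5 rose with maternal VDD and 4 fell with the HF diet, among them cytochrome c, Cycs (0.78 ± 0.20, adjusted p = 0.0333, and -0.58 ± 0.20, adjusted p = 0.0309).

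Of 16 regulators of mitochondrial biogenesis 6 rose with maternal VDD (median 0.15) and 5 fell with the HF diet (median -0.15), where 2.53% of all genes rose and 14.2% fell. Ppargc1a, which encodes PGC-1alpha, had 103, 183 and 251 normalized reads in CTRL LF females, 63.8, 71.8 and 126 in CTRL HF females, 224, 253 and 281 in VDD LF females and 97.7, 250.1 and 342 in VDD HF females. In males it had 88.2, 104 and 119.7 in CTRL LF, 33.6, 50 and 72.5 in CTRL HF, 226, 399.7 and 1048 in VDD LF and 73.5, 93.5 and 152 in VDD HF mice. Over 24 libraries it rose with maternal VDD (1.25 ± 0.25, adjusted p = 0.0133) and fell with the HF diet (-1.13 ± 0.25, adjusted p = 0.00228). Also rising with maternal VDD were Esrra (0.59 ± 0.11, adjusted p = 0.0115), Esrrg, Ppara, Sirt3 and Tfam, which packages mitochondrial DNA (0.28 ± 0.08, adjusted p = 0.0469). Nrf1 and Gabpa, which encode the factors of the most frequent motifs in the promoters above, differed by 0.03 ± 0.08, adjusted p = 0.874, and 0.00 ± 0.11, adjusted p = 0.996 with maternal VDD and did not pass.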

How the data were processed

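RNA of retroperitoneal white adipose tissue from 24 mice was sequenced as stranded mRNA libraries. The authors trimmed reads (Sickle), aligned them to mm10 (STAR 2.7.0d) and counted them per gene (featureCounts 1.6.1), and the submitters' processing notes also name Cufflinks 2.2.1, SAMtools 1.9, MultiQC and DESeq2. The deposited values are log2 normalized reads per gene and library, in 1 table for each of 8 comparisons, and the fold changes, standard errors and p-values of the authors' tests beside them were not used. Whole reads could be recovered from 100% of the values (tolerance 0.02), and 4 of 56899 entries with a duplicated name were left out.

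A count test had been planned, but the files hold log2 values, so limma 3.58.1 (R 4.3.3) was run on log2(normalized reads + 1) for each pair and, with libraries scaled together, over all 24 (8 group means), on genes with 10 or more normalized reads in 3 or more libraries and Benjamini-Hochberg adjustment over all tested genes. Differences of low genes are understated on this scale. Calls were an adjusted p under 0.05, or under 0.01 with a fold above 1.5 or below 0.66. The fit was tested on simulated reads with the means and spread of these data and 50 genes changed at each fold. Over 24 libraries the 0.05 rule called 22 of 50 at a fold of 1.3 and 41 of 50 at 2. With 3 against 3 mice (CTRL LF vs. CTRL HF males) that rule called 0 of 50 at 1.3, 1.5 and 2 and 10 of 50 at 3. The stricter rule called 0 of 50 at each fold there, so 0 calls in a pair do not show equal levels. Alternatives were limma-voom on the recovered reads, TMM scaling, a pseudocount of 10, no filter, the muscle marker level as a covariate and leaving out each library. Brown or white adipocyte marker levels as covariates and leaving out muscle-rich, kidney-rich, brown-rich or renal-named libraries were chosen after seeing the data. Members, gene lists and named genes (a fixed list by complex, the largest rise and fall per pair, the smallest p per contrast and every member called) were chosen with earlier results of these data known. The values of 1 member are not reported here.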

Additional observations from a re-analysis of the deposited data

How the results depend on the processing

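The direction of no summary value changed with maternal VDD, the HF diet or sex under limma-voom, TMM scaling, a pseudocount of 10 or no filter, while the number of members called moved. With maternal VDD, 64 members became 0 with the brown marker covariate, 6 with that covariate without Cox8b and Cox7a1, 0 without muscle-rich libraries, 0 without renal-named libraries and 15 without brown-rich libraries, and 4 by the stricter rule. Of all genes, 844 became 0, 107, 17, 1, 279 and 19 in the same order. Leaving out 1 library gave 44 to 76 members. With the HF diet, 38 became 24 with the brown marker covariate and 25 with that covariate without Cox8b and Cox7a1. The number was 8 without muscle-rich, 26 without kidney-rich, 30 without renal-named and 36 without brown-rich libraries, and 2 by the stricter rule. Of all genes, 5367 became 4355, 4574, 3934, 4955, 3378, 4945 and 1736 in the same order. For the members, leaving out 1 library gave 25 to 57. Between sexes, 20 became 11 without a filter, 3 with either brown covariate, 53 with the white adipocyte covariate, 1 without muscle-rich, 8 without kidney-rich, 3 without renal-named and 2 without brown-rich libraries, and 1 by the stricter rule, and leaving out 1 library gave 6 to 48. Of all genes, 3651 became 3514, then 2238 and 2387 with the brown covariates, then 4267, 1523, 3349, 1307, 2462 and 1338 in that order. In the pairs, the stricter rule called 0 members, and the 0.05 rule 1 in CTRL males, 11 in VDD males and 12 in CTRL females, all between LF and HF. In the fit over 24 libraries these 3 counts were 0, 9 and 1, the stricter rule called 1 in VDD males, and the 0.05 rule 34 in CTRL HF vs. VDD HF females. The median of CTRL LF vs. VDD LF females was 0.38 to 0.83 when 1 library was left out. The median interaction in males, -0.18, was -0.55 with the white adipocyte covariate and -0.47 without muscle-rich libraries. The causes were not tested. No paired analysis was possible because the data columns carry mouse numbers and not the replicate numbers of the labels.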
